A study of Mus musculus with 9 samples.

Results

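Pygm, Eno3 and Tnnt1 are genes of skeletal muscle fibers, and their transcripts were measured in stroma cut out of mouse prostates with invasive cancer and with prostatic intraepithelial neoplasia (PIN). They are the 3 genes with a row in the array's values among 8 skeletal muscle genes looked for by symbol, and they are represented by 4 cDNA clones, out of 8106 genes and 17207 clones that could be tested. No row carried the symbol of the other 5 genes, Tnnt3, Tnnc2, Ckm, Acta1 and Myl1, so these were not analysed here.

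The mice were male CR2-TAg animals of the FVB strain, in which the SV40 large T antigen is driven in neuroendocrine cells of the prostate by cryptidin-2 regulatory elements. All groups carry this transgene, and no stroma of a normal prostate is among the samples. Laser-microdissected stroma of 6 mice with invasive cancer at 24 weeks of age (invasive replicates 1 to 6) was set against that of 3 mice with PIN at 10 weeks (PIN replicates 2, 3 and 4), each on its own spotted cDNA array. Age and tumor stage changed together and cannot be told apart, and by the study's methods the invasive stroma was collected over a wider distance from the epithelium than the PIN stroma. The fourth PIN sample, which is part of the reference pool, was not analysed here as an array of its own.

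Each value is a log2 ratio of the sample over one pool of PIN stroma RNA, so 0 stands for the level of the pool and a negative value for less than it. The pool contained the RNA of the PIN samples themselves, the sample always carried Cy5 and the pool Cy3, and the RNA had been amplified before labelling. Every array held 17189 to 17206 values, with an SD of 0.69 to 0.81 on invasive arrays and 0.54 to 0.57 on PIN arrays. Over all clones, PIN replicate 4 correlated weakly with the other PIN arrays (r = 0.176 and 0.189) and little more with the invasive arrays (0.218 to 0.293). Spot intensities were not used, so whether a clone was bright or dim on an array is not known here, and neither can the presence of muscle be read from a ratio.

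Skeletal muscle fibers contract when calcium binds the troponin complex on the thin filament and lets myosin heads pull on actin, and they feed this work from glycogen and glucose. Several steps are carried by isoforms made mainly in muscle, while other tissues use a sister gene. Pygm encodes the muscle glycogen phosphorylase, which releases glucose phosphate from stored glycogen. Eno3 encodes the muscle (beta) enolase of glycolysis, and Tnnt1 the troponin T of slow-twitch fibers, which ties the troponin complex to tropomyosin. The prostate itself is surrounded and crossed by smooth muscle, and striated muscle of the urethral sphincter lies next to it.

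The stretch of 250 bases before the annotated start of each of the 3 genes is given because all 3 transcripts moved the same way and the promoters of muscle genes often carry E-boxes, the sites of myogenic factors such as MyoD. The sequences are from RefSeq (GRCm38.p6), 5′ to 3′ on the strand of the gene, with E-boxes (CANNTG, which reads the same on both strands in this notation) in capitals. Pygm lies on the plus strand (chr19:6384158-6384407), Eno3 on the plus strand (chr11:70656926-70657175) and Tnnt1 on the minus strand (chr7:4515976-4516225).
Pygm: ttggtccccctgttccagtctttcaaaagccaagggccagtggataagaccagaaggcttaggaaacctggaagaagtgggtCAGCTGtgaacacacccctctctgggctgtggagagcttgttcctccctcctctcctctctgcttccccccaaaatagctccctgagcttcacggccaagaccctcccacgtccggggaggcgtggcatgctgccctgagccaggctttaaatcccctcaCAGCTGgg
Eno3: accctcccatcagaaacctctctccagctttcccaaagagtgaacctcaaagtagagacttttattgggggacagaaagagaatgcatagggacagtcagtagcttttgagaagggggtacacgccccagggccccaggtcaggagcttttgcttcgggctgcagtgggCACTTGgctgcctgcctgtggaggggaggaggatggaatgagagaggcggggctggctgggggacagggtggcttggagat
Tnnt1: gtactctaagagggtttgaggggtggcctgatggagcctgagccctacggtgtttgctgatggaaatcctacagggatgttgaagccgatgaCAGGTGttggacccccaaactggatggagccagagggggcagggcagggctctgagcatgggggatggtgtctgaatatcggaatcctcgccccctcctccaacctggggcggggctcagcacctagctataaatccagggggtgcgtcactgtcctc
The window of Pygm held 2 E-boxes and those of Eno3 and Tnnt1 1 each. An E-box was found in 66.2% of all 32851 promoters of this length, with a mean of 1.16 per promoter. The M-CAT motif (CATTCC, both strands) was found once in Eno3 and is in 12.6% of promoters, and TATAAA was found once in Tnnt1 and is in 12.4%. The GC box (GGGCGG, both strands) was found once in Tnnt1 and is in 32.7%. No window of the 3 matched the MEF2 site or the CArG box, which 2.92% and 1.47% of promoters match, and no 2 of the matches overlapped. These are matches of letters and not measured binding sites, and whether they bear on the differences of the 3 genes was not tested.

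All 3 genes were lower in invasive cancer stroma. In each of them all 6 invasive arrays lay below all 3 PIN arrays, and each passed an adjusted p under 0.15 in limma with Benjamini-Hochberg adjustment over all 8106 genes. That threshold is the study's own. At it 1.89% of all genes were lower and 3.75% higher (5.64% either way), and in 2.99% all invasive arrays lay below all PIN arrays. The median log2 difference of the 3 genes was -1.57, against 0.02 over all genes. Pygm and Eno3 also belong to the list of differential clones that the study drew from these samples, so their calls are not independent evidence. In such dissected tissue, fewer cells of a type and less RNA per cell cannot be told apart.

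Eno3, represented by a single clone, differed most. Its log2 ratio was lowest at -3.18, with a median of -2.20 and a highest value of -0.69, on the invasive arrays, against -0.19, 0.01 and -0.69 on PIN replicates 2, 3 and 4. Invasive replicate 3 lay only 0.0041 below PIN replicate 4, while the other invasive arrays stood far below the PIN range. The mean was -2.13 ± 0.824 (SD, n = 6) in invasive stroma and -0.29 ± 0.359 (SD, n = 3) in PIN stroma. The difference of -1.84 (SE 0.418, 95% interval -2.75 to -0.93, adjusted p = 0.0585 from limma) corresponds to 3.57-fold less in invasive stroma.

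Tnnt1, also with a single clone, ranged on the invasive arrays from -1.92 through a median of -1.33 to -0.70. On PIN replicates 2, 3 and 4 it had 1.37, -0.39 and -0.36. Here the invasive arrays were close together and PIN replicate 2 was far above both other PIN arrays, so that the PIN spread was the wider one, with a mean of -1.37 ± 0.464 (SD, n = 6) on the invasive arrays, against 0.21 ± 1.01 (SD, n = 3) on the PIN arrays. The difference was -1.57 (SE 0.390, 95% interval -2.42 to -0.72, adjusted p = 0.0766 from limma), or 2.98-fold less in invasive stroma. The nearest arrays of the groups, invasive replicate 3 and PIN replicate 3, were 0.316 apart.

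Pygm, as the mean of its clones, had -1.92 as its lowest, -1.67 as its median and -0.54 as its highest value on the invasive arrays, against 0.23, 0.10 and -0.29 on PIN replicates 2, 3 and 4. The mean was -1.42 ± 0.607 (SD, n = 6) in invasive stroma and 0.01 ± 0.273 (SD, n = 3) in PIN stroma. Pygm was thus 2.70-fold lower in invasive stroma (log2 difference -1.43, SE 0.326, 95% interval -2.14 to -0.72, adjusted p = 0.0585 from limma). Invasive replicates 1 and 3 were the highest of their group and lay nearest to the PIN arrays, with a gap of 0.241 between invasive replicate 1 and PIN replicate 4.

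**Figure D1:**
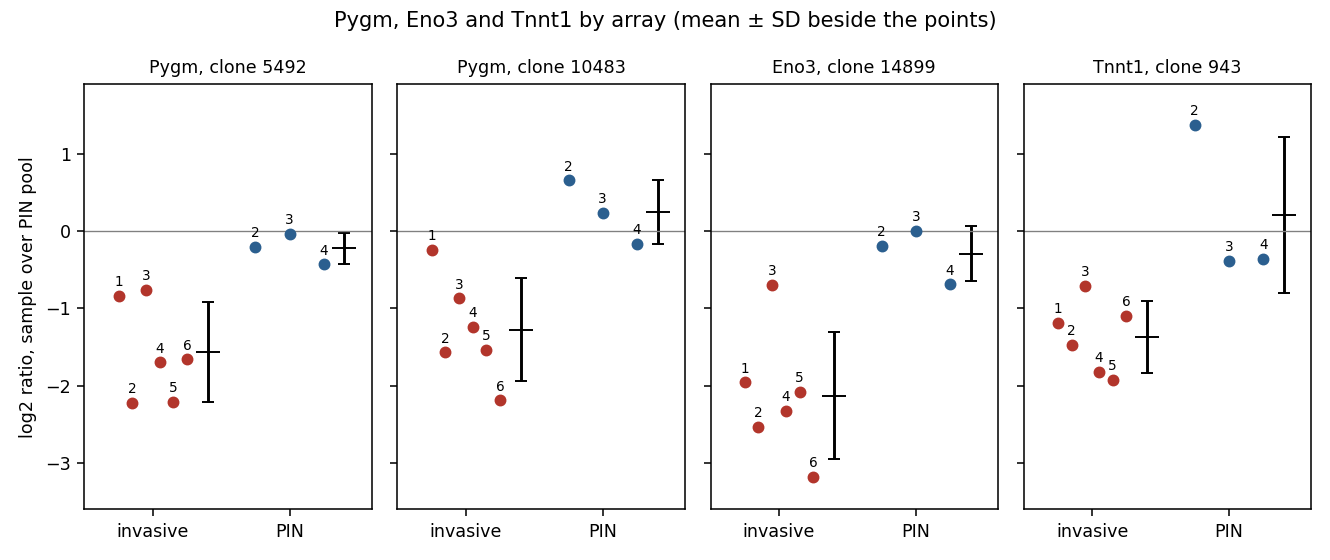
Log2 ratio of sample over PIN pool (vertical axis) for each clone of Pygm, Eno3 and Tnnt1 on the 6 invasive arrays (red, left) and the 3 PIN arrays (blue, right), with replicate numbers above the points and mean ± SD beside them. For Eno3 and Tnnt1 invasive replicate 3 is the highest invasive array, and Tnnt1 on PIN replicate 2 reaches 1.37.

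The 2 clones of Pygm (rows 5492 and 10483 of the array) were tested apart, with adjustment over all 17207 clones, of which 0.639% passed as lower and 2.16% in either direction. Clone 5492 differed by -1.34 (SE 0.345, adjusted p = 0.120 from limma) and clone 10483 by -1.52 (SE 0.369, adjusted p = 0.0999 from limma). Clone 5492 averaged -1.56 in invasive and -0.22 in PIN stroma, and clone 10483 -1.27 in invasive and 0.25 in PIN stroma. Within an array, clone 10483 was above clone 5492 by as much as 0.675 (invasive replicate 5) and below it by 0.532 (invasive replicate 6), and on the PIN arrays it was above by 0.269 to 0.861. The single clones of Eno3 and Tnnt1 passed in this fit too, with adjusted p = 0.0892 and 0.112 from limma. All 4 clones had every invasive array below every PIN array, although for clone 10483 invasive replicate 1 at -0.24 lay close to PIN replicate 4 at -0.16.

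The 3 genes followed each other over the arrays. Over all 9 arrays Pearson's r was 0.899 for Pygm with Eno3, 0.804 for Pygm with Tnnt1 and 0.736 for Eno3 with Tnnt1, which includes the distance between the groups. Over the 6 invasive arrays alone the values were 0.691, 0.536 and 0.417. These are descriptions over few arrays that share one reference pool. The mean of the 3 genes was -1.23, -1.97, -0.74, -1.87, -1.96 and -2.07 on invasive replicates 1 to 6, against 0.47, -0.09 and -0.45 on PIN replicates 2, 3 and 4. Invasive replicate 3 was the highest invasive array, followed by replicate 1, and the other 4 lay within 0.2 of each other. Over all clones, invasive replicates 3 and 1 correlated more with PIN replicate 2 (r = 0.529 and 0.514) than the other invasive arrays did (0.26 to 0.43). This did not hold for PIN replicates 3 and 4.

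The calls depended on single PIN arrays. Without PIN replicate 2 the differences of Pygm and Eno3 stayed at -1.32 and -1.79 but no longer passed (adjusted p = 0.249 and 0.237 from limma), and that of Tnnt1 shrank to -0.99 (adjusted p = 0.286). Without PIN replicate 3 Pygm (adjusted p = 0.201) and Eno3 (adjusted p = 0.223) did not pass and Tnnt1 did. Without invasive replicate 4 the adjusted p of Tnnt1 was 0.151. Without PIN replicate 4, the array that stood apart, all 3 passed (adjusted p = 0.0876 for Pygm, 0.0876 for Eno3 and 0.0827 for Tnnt1). The methods' t-test is not stated to be of the equal- or the unequal-variance form. With unequal variances per gene Tnnt1 did not pass (adjusted p = 0.461), and with equal variances per gene none of the 3 did. No gene of the 3 changed direction when any 1 array was left out.

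**Figure D2:**
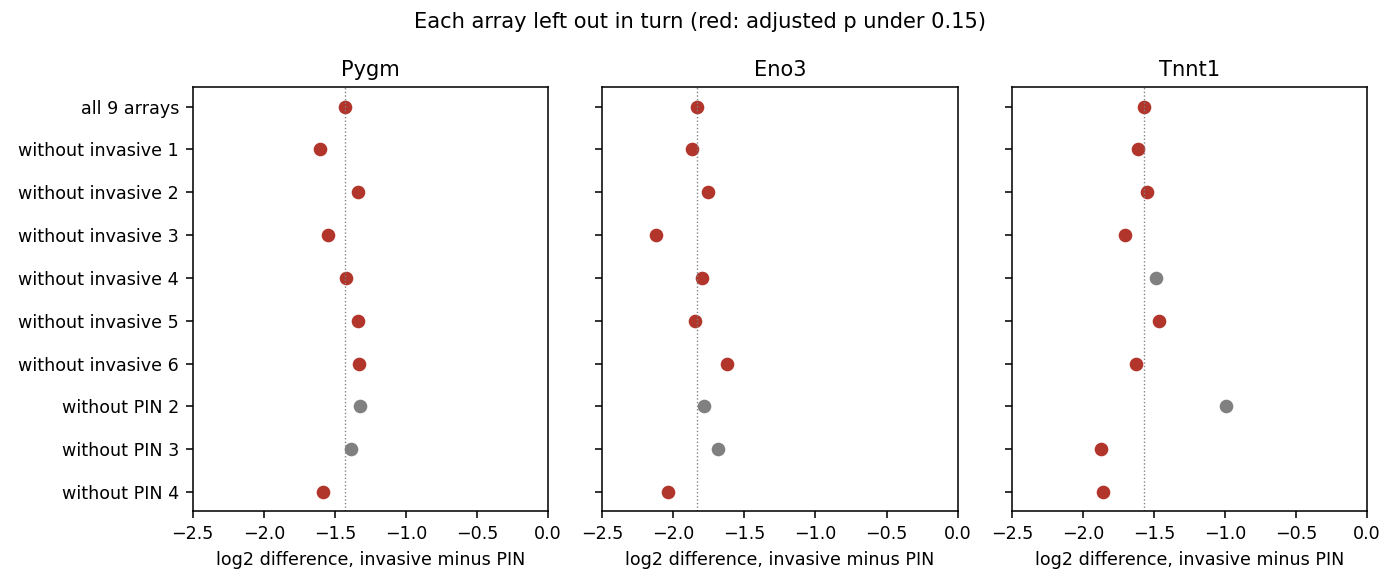
Log2 difference, invasive minus PIN (horizontal axis), of Pygm, Eno3 and Tnnt1 with all 9 arrays and with each array left out in turn. Red points have an adjusted p under 0.15 and grey points do not, and the dotted line marks the difference with all arrays. Tnnt1 moves most, to -0.99 without PIN replicate 2.

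Most other skeletal muscle genes with a row did not pass. Of 115 further genes of the sarcomere, calcium handling, fuel use and muscle regulation, 29 had a row. Of these 4 were lower (Tpm1, Tpm2, Atp2a2 and Slc2a4), none higher and 25 did not pass. Over all genes 1.89% were lower and 3.75% higher, so the share lower among the 29 was above that of all genes. The median difference of the 29 was -0.11. The 4 genes that fell are not confined to skeletal muscle: Tpm1 and Tpm2 are also made in smooth muscle, Atp2a2 in heart, smooth muscle and most other cells, and Slc2a4 in fat. The count of 4 became 2 without invasive replicate 2, 4 or 5, and 0 without PIN replicate 2 or 3. Tpm1 and Tpm2 were the calls lost without those invasive arrays, and they were also lost without invasive replicate 6 (adjusted p = 0.214 and 0.210 from limma), where Pax3 passed instead (adjusted p = 0.143).

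On the thin filament, the tropomyosin genes Tpm1 and Tpm2, whose products lie along actin and hold troponin, were lower. Tpm2 ranged from -4.50 through a median of -2.51 to -0.62 on the invasive arrays, against 0.21, 0.00 and -0.89 on PIN replicates 2, 3 and 4. Invasive replicates 2 and 6 were far below the others, and invasive replicate 3 lay inside the PIN range. Its difference was -2.45 (SE 0.758, adjusted p = 0.143 from limma). Tpm1 had a lowest value of -3.33, a median of -1.58 and a highest value of -1.30 on the invasive arrays, against 0.25, 0.22 and -1.52 on the PIN arrays, so that PIN replicate 4 lay among the invasive arrays. The difference of Tpm1 was -1.63 (SE 0.489, adjusted p = 0.130). The third tropomyosin gene, Tpm3, had a difference of 0.57 and did not pass (adjusted p = 0.266).

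Thick filament and Z-disc genes did not pass. Mylpf, the regulatory light chain of fast fibers, ranged from -0.01 through a median of 0.28 to 1.45 on the invasive arrays, against 0.33, -0.33 and 0.76 on the PIN arrays, with a difference of 0.17 (95% interval -0.54 to 0.89, adjusted p = 0.872 from limma). Myh3, the embryonic myosin heavy chain, had a difference of -0.02 (95% interval -0.76 to 0.72, adjusted p = 0.985). Both groups overlapped widely in these genes, as they did in Actn3, the alpha-actinin of fast fibers (-0.35, 95% interval -1.03 to 0.33, adjusted p = 0.677), and in Fhl1, a LIM protein of muscle (-0.43, 95% interval -1.52 to 0.65, adjusted p = 0.759). Ttn, which encodes the giant spring protein of the sarcomere, differed by 0.09, and Actn2, the alpha-actinin of all striated fibers, by 0.08. Single clones of such genes on a ratio scale do not tell whether the transcript was present in either group.

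Among calcium genes, Atp2a2, the calcium pump of the sarcoplasmic reticulum in slow fibers and heart, ranged from -1.22 through -0.93 (median) to -0.73 on the invasive arrays, against 0.05, 0.17 and -0.42 on PIN replicates 2, 3 and 4. The groups did not overlap, and the difference was -0.88 (SE 0.199, adjusted p = 0.058 from limma). Its 4 clones differed among themselves, from -1.90 for clone 8071 (adjusted p = 0.0417) to -0.04 for clone 13542, and clone 8071 alone passed. Hrc, which binds calcium in the reticulum, and Clcn1, the chloride channel of the fiber membrane, had differences of 0.30 and 0.05 and did not pass.

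In fuel use, Slc2a4, the insulin-responsive glucose transporter GLUT4, ranged from -2.88 through a median of -1.90 to -1.12 on the invasive arrays, against 0.05, -0.46 and -0.51 on the PIN arrays. No array of one group lay in the range of the other. Slc2a4 was lower by a log2 difference of -1.68 (SE 0.395, adjusted p = 0.062 from limma), and its clones by -1.94 and -1.42. The other 8 genes of glycogen, glycolysis and fat use with a row did not pass, with differences from -0.26 for Pfkm to 0.42 for the glycogen synthase gene Gys1. Phka1 and Phkg1, subunits of the kinase that switches Pygm's enzyme on, had -0.11 and -0.01, and Pgam2, the muscle phosphoglycerate mutase one step before enolase, had -0.06. The clones of Pfkm, the muscle phosphofructokinase, disagreed, since clone 4359 fell by 0.99 (adjusted p = 0.0649) while clones 9377 and 16051 had 0.10 and 0.12.

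Regulators and membrane proteins of muscle, 7 genes with a row, did not pass. Pax3, a transcription factor of muscle precursors, had a difference of -0.66 (adjusted p = 0.241 from limma) and Mstn, the myostatin that limits muscle growth, 0.55 (adjusted p = 0.321). Myod1, the factor that commits cells to muscle, had -0.14, with -0.49 to 0.09 in the invasive group, against -0.29 to 0.02 in the PIN group.

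**Figure D3:**
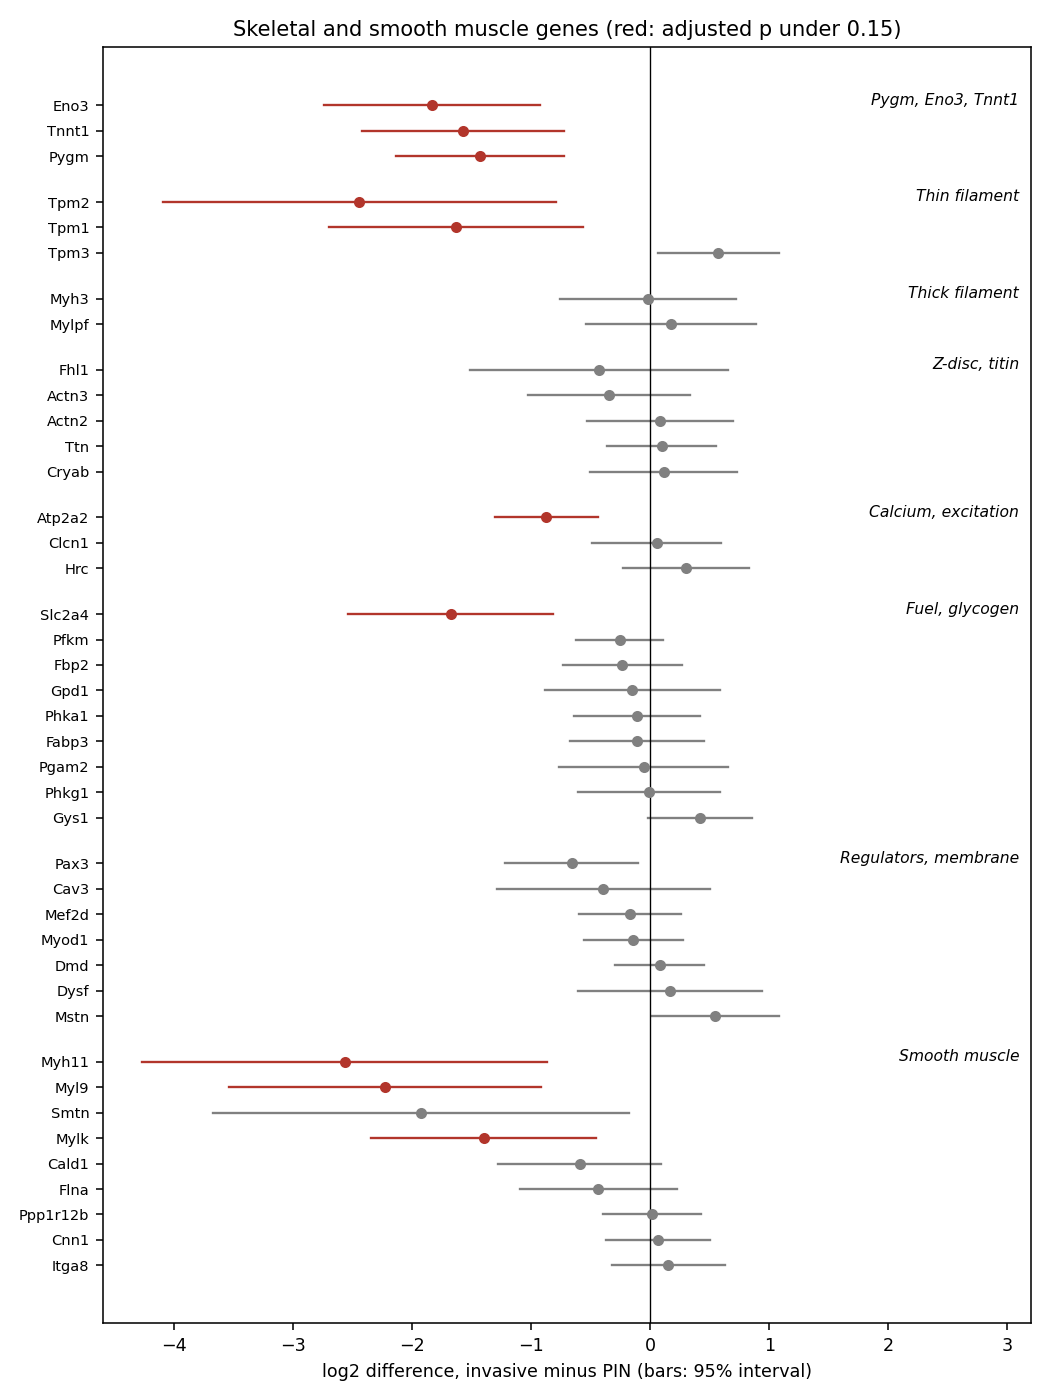
Log2 difference, invasive minus PIN (horizontal axis), with its 95% interval from limma for Pygm, Eno3 and Tnnt1, for other skeletal muscle genes by role and for smooth muscle genes. Red marks an adjusted p under 0.15. The 3 genes, Tpm1, Tpm2, Atp2a2 and Slc2a4 lie left of 0 with the smooth muscle genes Myh11, Myl9 and Mylk. Ttn, Myh3, Mylpf and the smooth muscle gene Cnn1 lie around 0.

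The sister genes that other tissues use were compared next. Of 15 such genes 7 had a row, and 3 (Ckb, Myl6 and Myl9) were lower, against 1.89% of all genes. None of these 3 is a sister of Pygm, Eno3 or Tnnt1. Only Pygb and Pygl, the sisters of Pygm, are, and neither passed. All 7 differences were negative, as were those of 3890 of all 8106 genes. In 4 of the 7 (Pygb, Ckb, Actg1 and Myl9) every invasive array lay below every PIN array, as in 2.99% of all genes. Pygb, the brain-type phosphorylase, had a lowest value of -1.29, a median of -0.75 and a highest value of -0.54 on the invasive arrays, against -0.26, 0.09 and -0.25 on PIN replicates 2, 3 and 4. Its groups did not overlap, yet the difference of -0.64 did not pass (SE 0.206, adjusted p = 0.151 from limma). Its clones disagreed, with -1.35 for clone 11408 (adjusted p = 0.0769) and 0.07 for clone 14822. Pygl, the liver phosphorylase, had a difference of -0.02 (95% interval -0.77 to 0.73), with clones at -0.06, 0.02 and -0.02, and its direction turned under several settings. Within each array Pygm was also set against its sisters. Pygm minus Pygb averaged -0.638 ± 0.467 (SD, n = 6) on the invasive arrays, against 0.151 ± 0.293 (SD, n = 3) on the PIN arrays, a change of -0.788. Pygb enters here as the mean of its 2 clones, and clone 11408 alone fell nearly as much as Pygm (-1.35 against -1.43). The change therefore rests on clone 14822, and Pygm was not set against single Pygb clones. Pygm minus Pygl averaged -1.12 ± 0.856 (SD, n = 6), against 0.294 ± 1.23 (SD, n = 3), a change of -1.41. In a two-sided exact permutation test p was 0.0714 and 0.0952 (adjusted p = 0.0952 for both, smallest possible p 0.0238), which is above 0.05. The adjustment covers only these 2 comparisons, so the 0.15 used over all genes is not a yardstick for it. As Pygl itself differed by -0.02, the change of Pygm minus Pygl largely repeats the difference of Pygm. Both comparisons were chosen with the values known.

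The creatine kinase of brain and smooth muscle, Ckb, ranged from -1.40 to -0.28 in invasive stroma, against 0.02 to 0.17 in PIN stroma, and was lower by a log2 difference of -0.85 (adjusted p = 0.117 from limma). Myl6, the essential light chain of non-muscle and smooth muscle myosin, was lower (-1.01, adjusted p = 0.130), and so was Myl9, the regulatory light chain of smooth muscle (-2.23, adjusted p = 0.101). The cytoplasmic actin genes Actb (-0.20, adjusted p = 0.815) and Actg1 (-0.62, adjusted p = 0.172) did not pass. Each of the calls of Ckb, Myl6 and Myl9 was lost when PIN replicate 2 or 3, or invasive replicate 2 or 5, was left out. Eno1, Eno2 and Tnnt2, sister genes of Eno3 and Tnnt1, had no row.

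**Figure D4:**
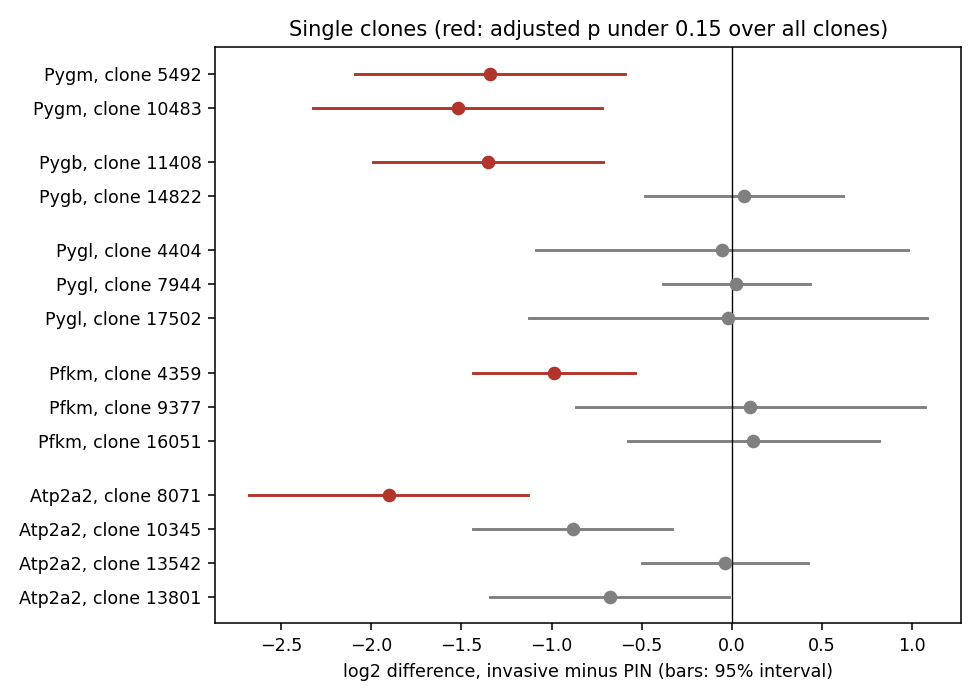
Log2 difference, invasive minus PIN (horizontal axis), with its 95% interval for each clone of Pygm, of its sister genes Pygb and Pygl, and of Pfkm and Atp2a2. Red marks an adjusted p under 0.15 over all clones. Both clones of Pygm are lower, at -1.34 and -1.52, whereas the clones of Pygb, Pfkm and Atp2a2 differ among themselves.

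Some genes of smooth muscle were lower as well. Of 19 listed, 9 had a row, of which 3 were lower, none higher and 6 did not pass, with a median difference of -0.59. Over all genes 1.89% were lower. The 3 were Myh11, Mylk and Myl9, and Myl9 is also counted among the sister genes above. Myh11, the smooth muscle myosin heavy chain, ranged from -4.82 through a median of -2.39 to -0.53 on the invasive arrays, against 0.18, 0.40 and -0.58 on PIN replicates 2, 3 and 4. It differed by -2.57 (SE 0.781, adjusted p = 0.136 from limma), with invasive replicates 2 and 6 lowest and invasive replicate 3 inside the PIN range. Mylk, the myosin light chain kinase, differed by -1.40 (adjusted p = 0.143), and its clones disagreed, with -2.57 for clone 5781 (adjusted p = 0.148 over all clones) and -0.24 for clone 9710 (adjusted p = 0.828). Smoothelin, Smtn, differed by -1.93 and did not pass (adjusted p = 0.278). Cald1 (-0.59) and Flna (-0.44) did not pass either, nor did Cnn1 (0.065), Itga8 (0.15) and Ppp1r12b (0.01), which were not lower. The per-array median of the 9 genes was -1.47 to -0.06 in invasive stroma, against -0.46 to 0.31 in PIN stroma. None of the 3 calls remained without invasive replicate 2, 4 or 5 or without PIN replicate 2 or 3. The part of smooth muscle in the values of Pygm, Eno3 and Tnnt1 was not tested. Of 10 heart muscle genes 4 had a row and none passed, with Ryr2 at -0.51 (adjusted p = 0.237) and Nppb at 0.19 (adjusted p = 0.791).

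**Figure D5:**
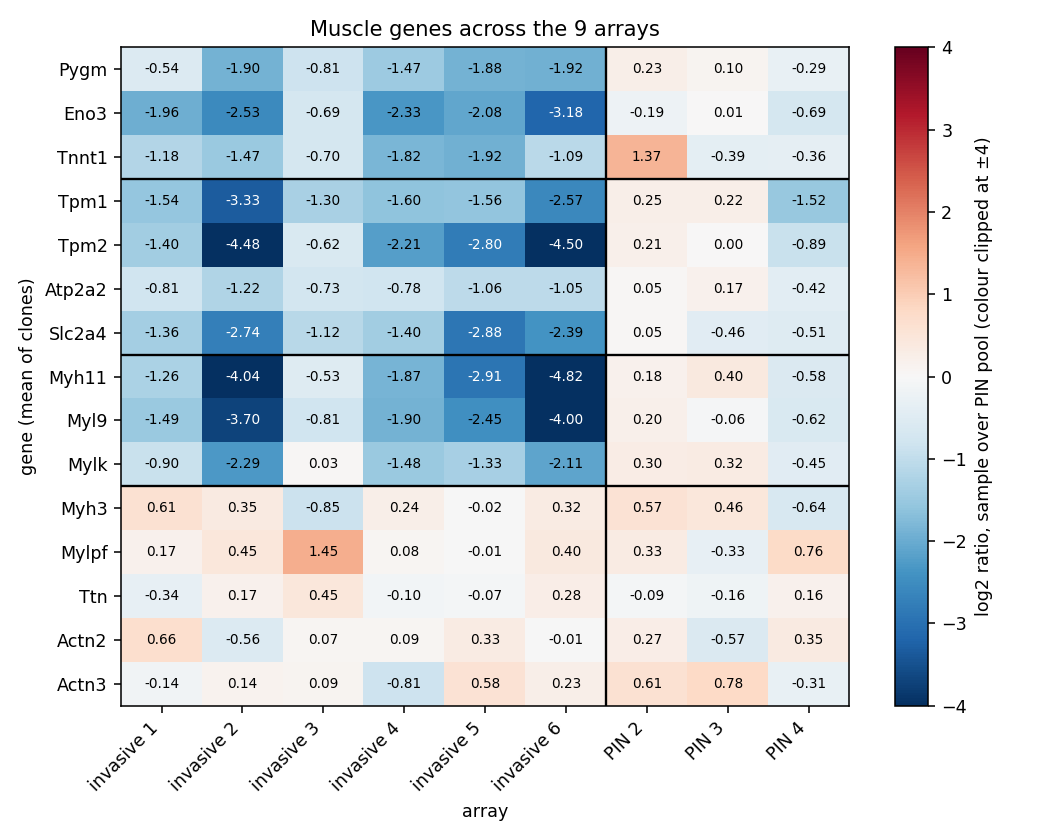
Log2 ratio of sample over PIN pool (color and printed value, color clipped at 4 either way) for muscle genes (rows) on the 6 invasive and 3 PIN arrays (columns). The rows show Pygm, Eno3 and Tnnt1, then other skeletal muscle genes that passed, then smooth muscle genes that passed, then skeletal muscle genes that did not pass. Tpm2, Myh11 and Myl9 are lowest on invasive replicates 2 and 6, and Ttn shows no separation of the groups.

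Markers of other cells moved too. At the same threshold 3.75% of all genes were higher and 1.89% lower. All 6 macrophage markers with a row (of 16) were higher, with per-array medians of 0.837 to 2.83 in invasive stroma, against -0.377 to 0.406 in PIN stroma. Of 13 fibroblast genes with a row (of 16) 5 were higher, with a median difference of 1.24, as were 2 of 6 endothelial (of 12) and 2 of 7 adipocyte genes (of 10). Of the 9 epithelial genes (of 14), 2 nerve (of 10) and 2 red blood cell genes (of 9) none passed, and 1 of 4 neuroendocrine genes (of 12) was higher. Invasive replicate 3, where Eno3 and Tnnt1 were highest among invasive arrays, had the lowest macrophage median of its group. It also had the lowest fibroblast (0.190) and endothelial (0.331) medians and the highest smooth muscle median (-0.06). Pygm was highest on invasive replicate 1, where the macrophage median was 2.68. What these shifts contribute to the ratios of Pygm, Eno3 and Tnnt1 was not tested.

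Of all other genes, those whose profile over the 9 arrays was most like the mean of Pygm, Eno3 and Tnnt1 were Kdm1b (r = 0.952), Myl6 (0.951), Myzap (0.948), Axin2 (0.946), Nrep (0.940), Msrb1 (0.938), Grb14 (0.935) and Hsd17b10 (0.934). Kdm1b encodes a histone demethylase, Axin2 a scaffold that restrains Wnt signaling, Grb14 an adaptor of the insulin receptor and Msrb1 a methionine sulfoxide reductase. Over the 6 invasive arrays alone r was 0.747 for Nrep to 0.957 for Kdm1b. Because r over the 9 arrays includes the distance between the groups, the choice itself favored genes lower in invasive stroma. All but Hsd17b10 were called lower, from -1.01 for Myl6 to -2.15 for Grb14 (adjusted p = 0.0230 from limma), and Hsd17b10 had -0.46 and did not pass (adjusted p = 0.341). Of these calls only that of Grb14 held without PIN replicate 2 (and without every other single array). Those of Myzap, Nrep and Msrb1 were lost without PIN replicate 2 or 3, and those of Kdm1b, Myl6 and Axin2 also without single invasive arrays. Among the muscle genes, Mylk ranked 20th, Atp2a2 24th and Slc2a4 26th by r over the 9 arrays. Ttn had r of -0.14, Mylpf 0.09, Actn2 0.05 and Myh3 -0.06, which again includes the distance between the groups. Within the 6 invasive arrays r was 0.922 for Mylk, 0.736 for Atp2a2 and 0.774 for Slc2a4. There Mylpf had 0.728, near those of Atp2a2 and Slc2a4, while Actn2 had 0.365, Ttn 0.178 and Myh3 -0.597. The arrays share one pool, and these values carry no test.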

How the data were processed

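Stroma was laser-microdissected, its RNA amplified in 2 rounds and hybridized to 2-color arrays of spotted cDNA clones. The authors subtracted no background and applied lowess within print-tip groups. The deposited values used here are the log2 ratio of each sample (Cy5) to a pool of PIN samples (Cy3), and spot intensities were not used. Samples were grouped by the labels, which describe a separate sample for each array, and no array was dropped.

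Of 17664 rows, 457 held no value and 12563 had 1 gene symbol in the platform table, 412 several and 4689 none. Clones with the same symbol were averaged within an array. A minimum of 4 invasive and 2 PIN values left 8106 of 8146 genes. Invasive minus PIN was tested by lmFit and eBayes of limma (version 3.58.1, under R 4.3.3, two-sided, Benjamini-Hochberg) and called at an adjusted p under 0.15. Fold values are powers of 2 of the difference. The fit was tested on simulated data. The other tools were Python 3.11.15, numpy 2.4.6, pandas 2.3.3, scipy 1.17.1 and matplotlib 3.10.9.

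Genes named are Pygm, Eno3 and Tnnt1 with each clone, up to 4 passing genes of each muscle list (2 of smallest p where none passed), all sister genes with a row, and the 8 genes most alike. Ttn, Actn2, Tpm3, Hrc, Clcn1, Pfkm, Gys1, Phka1, Phkg1, Pgam2, Myod1, Smtn, Cald1, Flna, Cnn1, Itga8 and Ppp1r12b fall outside this rule and were chosen after their values were seen. The genes and lists were chosen with earlier results of these data known. Each array was left out in turn. Further settings were array weights, the methods' t-test per gene in its unequal- and its equal-variance form (the methods do not say which), robust eBayes, centring, scaling or quantile normalization of the arrays, other filters on missing values, a test of invasive arrays against 0, the 0.05 threshold, the median or lowest-p clone of a gene, and a replicate block. The count of smooth muscle genes and the comparison of phosphorylases were added after the values were seen. Promoter letters are RefSeq's.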

Additional observations from a re-analysis of the deposited data

Results flagged for a closer look

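Of 33 genes and clones checked over the 6 invasive arrays, 2 had 1 array far from the other 5, where chance gives about 1 in 20. Mylpf had 1.45 on invasive replicate 3, against -0.01 to 0.45 on the other invasive arrays. Pygb had -1.29 on invasive replicate 2, against -0.78 to -0.54 on the others.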

How the results depend on the processing

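The median difference of Pygm, Eno3 and Tnnt1 kept its direction in every alternative, between -1.86 and -1.32. Their 3 calls became 0 with the equal-variance test and at an adjusted p under 0.05, and 2 with the unequal-variance test, where Tnnt1 was lost. The count was 0 to 3 when 1 array was left out. The count of their clones, 4, became 0 with the unequal-variance test, the equal-variance test and the 0.05 threshold, and 0 to 4 when 1 array was left out, with 0 without invasive replicate 2, 4 or 5 or PIN replicate 2 or 3. The count of other skeletal muscle genes, 4, became 1 with the unequal-variance test, 0 with the equal-variance test and the 0.05 threshold, 9 with array weights, 10 with the invasive arrays against 0, and 0 to 5 without 1 array. Over all genes 457 passed, against 207 with the unequal-variance test, 54 with the equal-variance test, 1685 with array weights, 2595 with the invasive arrays against 0, 76 at 0.05, and 37 (without PIN replicate 2) to 896 (without invasive replicate 3) when 1 array was left out. The causes were not tested, except that the 0.05 threshold is stricter by construction.

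With the replicate number as a block 90 genes passed, and 0 of Pygm, Eno3 and Tnnt1, 0 of their clones and 0 of the other skeletal muscle genes did. Invasive replicates 1, 5 and 6 have no PIN array of the same number, so they did not inform this difference. The differences were -1.41 for Pygm, -1.56 for Eno3 and -1.54 for Tnnt1. The labels give no shared animal, and same-numbered arrays did not deviate together (r of -0.09, -0.10 and -0.02), so the numbers do not pair the samples.

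Only genes that did not pass changed direction. Myh3 had 0.11 with the invasive arrays against 0, 0.17 and 0.0050 without invasive replicates 3 and 5, and 0.20 and 0.14 without PIN replicates 2 and 3. Mylpf had -0.03 without invasive replicate 3 and -0.12 without PIN replicate 3, Actn3 0.0152 with the invasive arrays against 0, and Fhl1 0.0072 without PIN replicate 3. Pygl had 0.40 with array weights, 0.11 with scaling, 0.0128 with the median of clones, 0.0247 with the clone of lowest p, 0.07 and 0.0127 without invasive replicates 1 and 3, and 0.53 without PIN replicate 4. When 1 array was left out, Myh3 ranged from -0.41 to 0.20, Mylpf from -0.12 to 0.43, Fhl1 from -0.95 to 0.0072 and Pygl from -0.33 to 0.53. The 3 PIN arrays limit every comparison, and spot brightness over background was not examined.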
